A study of Mus musculus with 7 samples.

Results

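The cells described here came from a sort for the mouse LSK compartment. They held transcripts of mitotic genes and few or none of the lineage transcripts named in the rule below. Members were selected on measured UMI counts (unique molecular identifiers, which count captured RNA molecules): a cell had to hold at least 10 UMIs of Mki67, Top2a and Cenpf together, no UMI of Dntt, Elane, Pf4 or Gata1, at most 2 of Flt3, at most 4 of Mpo, and fewer than 3 detected genes out of 10 stem cell genes. These are called gated mitotic cells, and the rule took 89 of the 24430 cells kept (a minimum of 1000 UMIs and 500 genes, and at most 10% of UMIs mitochondrial). The working name of the group, progenitors without lineage markers, did not hold in the data. Of the 89, 24 were full of transcripts from a list of neutrophil granule genes that includes S100a8 and S100a9. A further 10 carried MHC class II transcripts and 8 carried much Lyz2. The group is therefore named by its rule.

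Bone marrow cells sorted as Lineage-, Sca-1+ and cKit+ were sequenced in 7 single-cell libraries. In 3 libraries, KO1 to KO3, the genotype label read 129S1/C57Bl/6, B4-/-, and the series' text calls these mice full knockouts of B4galt1. In 4 libraries, WT1 to WT4, it read 129S1/C57Bl/6. B4galt1 encodes a Golgi galactosyltransferase that extends the glycans of many proteins, and the design asks what its loss does to these marrow cells. The labels name no separate animals behind the libraries, so p-values measure only the spread between these libraries, which may be technical.

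The libraries held 14970791 to 89747946 UMIs in all barcodes. They also fell into 2 sets by the sequences of their cell barcodes: list A held KO1, KO2, WT1, WT2 and WT3, and list B held KO3 and WT4. Each list held both labels, and values are given by list where the lists stood apart. B4galt1 itself had 10, 7 and 4 UMIs in the gated mitotic cells of KO1 to KO3, and 7, 10, 8 and 14 in those of WT1 to WT4. The labels do not say which part of the gene was deleted, and reads from the 3′ end can lie outside it, so these counts do not check the labels.

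As background, Mki67 encodes the Ki-67 protein that coats mitotic chromosomes, Top2a encodes the topoisomerase that untangles sister chromatids, and Cenpf encodes a protein of the outer kinetochore. Their transcripts build up in G2 and peak at mitosis under the MuvB complex with B-Myb and FoxM1, which reads a promoter element called CHR, and under NF-Y, which reads CCAAT boxes. In the LSK compartment most stem cells rest, and multipotent progenitors divide before they commit to a lineage.

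The 3 genes that define the cells are shown by the 250 bases before their start sites, with Ube2c beside them because it later gave the largest difference between gated mitotic cells and non-mitotic cells under the same limits. The stretches are from RefSeq (GRCm38.p6): chr7:135716380-135716629, minus strand, for Mki67, chr11:99024190-99024439, minus strand, for Top2a, chr1:189688087-189688336, minus strand, for Cenpf, and chr2:164769679-164769928, plus strand, for Ube2c. Capitals mark TTTGAA or TTCGAA, the letters of the CHR element, and CCAAT, each on either strand.
Mki67: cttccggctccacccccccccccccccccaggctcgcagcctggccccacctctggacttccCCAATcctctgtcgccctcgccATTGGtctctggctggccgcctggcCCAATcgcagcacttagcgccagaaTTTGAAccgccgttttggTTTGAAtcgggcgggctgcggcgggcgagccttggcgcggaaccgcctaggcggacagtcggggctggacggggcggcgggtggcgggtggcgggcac
Top2a: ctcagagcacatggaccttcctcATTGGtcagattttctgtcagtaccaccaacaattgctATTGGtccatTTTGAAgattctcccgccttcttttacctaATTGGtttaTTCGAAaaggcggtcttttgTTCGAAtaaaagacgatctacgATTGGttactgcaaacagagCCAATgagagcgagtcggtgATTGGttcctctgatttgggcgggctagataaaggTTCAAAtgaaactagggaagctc
Cenpf: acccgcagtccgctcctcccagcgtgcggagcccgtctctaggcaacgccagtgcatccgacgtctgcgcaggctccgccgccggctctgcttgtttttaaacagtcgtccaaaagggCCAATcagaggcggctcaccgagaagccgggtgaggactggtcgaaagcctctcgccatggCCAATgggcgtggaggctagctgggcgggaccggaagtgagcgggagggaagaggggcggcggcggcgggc
Ube2c: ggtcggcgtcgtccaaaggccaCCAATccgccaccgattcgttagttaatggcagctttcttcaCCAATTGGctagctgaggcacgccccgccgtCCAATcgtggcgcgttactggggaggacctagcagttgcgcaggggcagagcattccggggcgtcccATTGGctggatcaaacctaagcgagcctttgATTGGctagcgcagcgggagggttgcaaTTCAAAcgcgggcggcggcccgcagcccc

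Top2a held 4 CHR matches and 6 CCAAT matches, Mki67 held 2 and 3, Ube2c held 1 and 6, and Cenpf held no CHR match and 2 CCAAT matches. Over the genes of the G2/M and spindle lists, none of which the rule used, 66 of 78 had a promoter in the RefSeq table. A CHR match stood in 24 of these 66 (36.4%) and in 19.6% of the 27025 genes of the whole table. A CCAAT match stood in 45 of 66 (68.2%) against 37.5% of all genes, and both kinds in 20 of 66 (30.3%) against 7.001%. A match is only a run of letters and not evidence of binding.

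The limits were strict. Of 5221 mitotic cells, 3415 (65.4%) exceeded the Mpo limit, 2800 (53.6%) the Flt3 limit and 2714 (52.0%) the stem cell gene limit. Dntt, the terminal transferase of early lymphoid cells, was present in 1847 (35.4%), and Elane, neutrophil elastase, in 1694 (32.4%). Pf4, a megakaryocyte chemokine, was present in 753 (14.4%), and Gata1, the erythroid and megakaryocyte factor, in 421 (8.06%). Only 620 failed exactly 1 limit, of which 328 failed on stem cell genes alone and 152 on Mpo alone. KO1 gave 17 gated mitotic cells, KO2 gave 7, KO3 gave 12, WT1 gave 14, WT2 and WT3 gave 9 each and WT4 gave 21, and none of their barcodes was shared between libraries.

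Depth moved with the gate. The median of the gated mitotic cells was 8050 to 13428 UMIs by library, against 16144 to 24326 in the mitotic cells outside the limits and 3351 to 6760 in the 1375 non-mitotic cells within them. To hold depth equal, each cell with at least 5000 UMIs was thinned to 5000, with limits scaled down to 5 mitotic UMIs, 1 of Flt3 and 2 of Mpo. This left out 1139 of 11652 knockout-labelled and 1573 of 12778 WT cells, and 166 and 207 cells then passed, so that more cells passed at this depth and with these limits than the 89 of the unthinned data. Just under the threshold, 17 cells within the limits held 8 or 9 UMIs of the 3 mitotic genes and a median of 80.0 UMIs of G2/M and spindle genes per 10000. Just above it, 15 cells held 10 or 11 UMIs and a median of 104.

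The 89 cells were not one kind of cell. After their values were seen, they were sorted by a few strong genes, so the resulting sets are described and not tested. A cell with at least 5 of 9 neutrophil granule genes was called a granule-gene cell (24 cells). A cell with the MHC class II genes Cd74, H2-Aa, H2-Ab1 and H2-Eb1 was called an MHC class II cell (10 cells), and one with at least 10 UMIs of Lyz2 outside these sets a Lyz2 cell (8 cells). A single cell held basophil genes, and 46 remained.

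**Figure D1:**
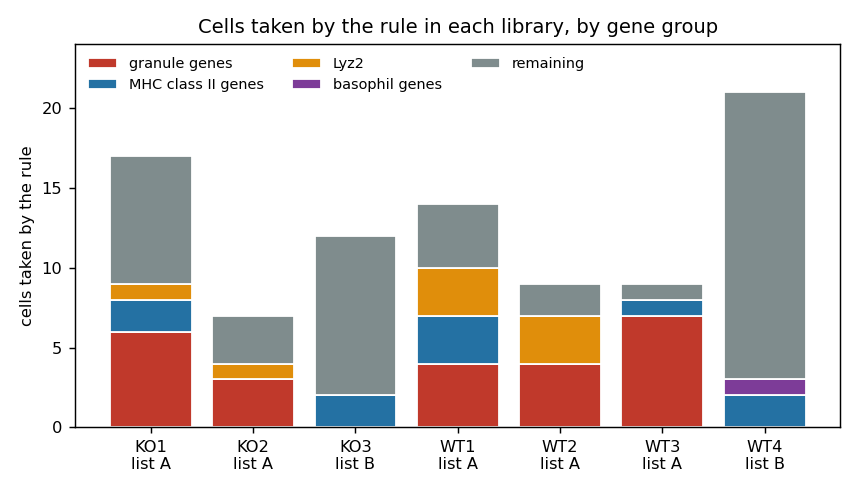
Number of gated mitotic cells in each of the 7 libraries, divided by the gene sets found in them. Granule-gene cells occur in all 5 list A libraries (3 to 7 cells) and in neither list B library, whereas the remaining cells make up 10 of 12 in KO3 and 18 of 21 in WT4.

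Secondary granule genes are known to be switched on in neutrophil precursors that still divide, after the primary granule genes such as Elane and Mpo. In the 24 granule-gene cells, granule genes supplied 544 to 7533 UMIs per cell, or 19.1% to 45.7% of all its UMIs, with a median of 35.4%. S100a9 and S100a8, the subunits of calprotectin, had medians of 1475 and 884.5 UMIs per cell. Both are among the 9 genes of the list, and they held 41258 and 24928 UMIs over the 24 cells. The shares above are therefore mostly those of these 2 genes and not of secondary granule genes alone. Camp, the cathelicidin precursor, had a median of 373.5, and Ngp, neutrophilic granule protein, one of 303. Chil3, a chitinase-like protein, had a median of 107 UMIs, Lcn2, a lipocalin that binds bacterial siderophores, one of 80, and Ltf, lactoferrin, one of 77.5. Cebpe, the transcription factor of secondary granule genes, was present in 22 of 24 cells, Itgam, the CD11b integrin chain, in 23, Ly6g in 14 and Cxcr2, a chemokine receptor of mature neutrophils, in 15. Gfi1, a repressor needed in early neutrophil precursors, was present in only 7, and Mmp8, neutrophil collagenase, in 2.

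The sort had selected cKit+ and Sca-1+ cells, and the granule-gene cells carried little transcript of either. Kit was present in 5 of 24 with 5 UMIs in all, against 36 of the 46 remaining cells with 99 UMIs. Cd34, a surface sialomucin of progenitors, was present in 4 of 24 against 39 of 46. Ly6a, which encodes Sca-1, was present in 0 of 24, which allows a share of up to 12.5% of cells with a UMI, and in 13 of 46. None of the 3 transcripts was found in 17 of 24 granule-gene cells and in 3 of 46 remaining cells. Median totals were 10471 and 10389 UMIs, but outside the granule genes the granule-gene cells held a median of only 6419 UMIs, and they had 2761 detected genes against 3584. The transcripts of the sort markers were thus sought at lower depth in the granule-gene cells, and its part in these shares was not tested.

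Granule transcripts outside these cells were few. The other 32 gated mitotic cells of list A held 0 to 64 granule UMIs with a median of 1, and 14 held none. Of the 33 cells of list B, 32 held none and the highest held 1, so that no granule-gene cell was seen among 33, which allows a share of up to 9.09%. In list A, cells with at least 10% of their UMIs from granule genes made up 24 of 56 gated mitotic cells (42.9%). They made up 39 of 572 non-mitotic cells within the limits (6.82%) and 24 of 2487 mitotic cells outside them (0.965%). Of those 24 outside cells, 19 held Elane or exceeded the Mpo limit. Across all 24430 cells there were 107 such cells (0.438%), and list B held 2 of them among 15717. With the definition by at least 5 detected granule genes, the counts were the same within the limits, and were 104 of 2487 mitotic cells outside them (4.18%) and 236 of all cells (0.966%), 20 of them in list B.

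By library the granule-gene cells numbered 6 in KO1, 3 in KO2, 4 in WT1, 4 in WT2 and 7 in WT3. As a share of kept cells this was 0.195% in KO1 and 0.174% in KO2, and 0.322%, 0.341% and 0.467% in WT1 to WT3. The shares were lower in both knockout-labelled list A libraries than in the 3 WT ones. The order was another before the lineage limits: mitotic cells with at least 5 granule genes numbered 97 in KO1 and 3 in KO2, and 8, 7 and 13 in WT1 to WT3. In KO1, 91 of the 97 held Elane or exceeded the Mpo limit, and the cells outside the limits had a median of only 0.220% of UMIs from granule genes. The 95% exact binomial intervals of the gated shares overlap, at 0.0717% to 0.425% in KO1 and 0.188% to 0.959% in WT3, and these intervals cover counting error only.

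**Figure D2:**
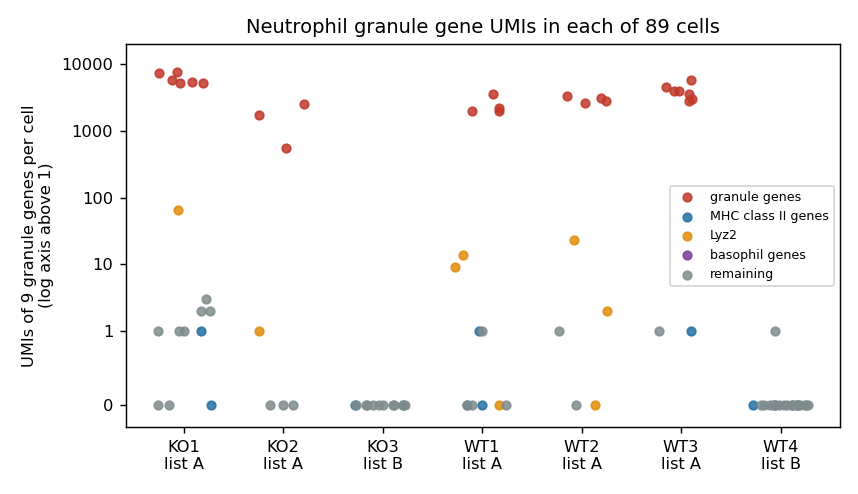
UMIs of the 9 granule genes in each of the 89 gated mitotic cells, by library, with a log axis above 1 and colours for the gene set of a cell. The 24 granule-gene cells lie at 544 to 7533 UMIs, all in list A libraries, and every other cell lies at 64 or fewer.

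For 2 secondary granule genes the 250 bases before the start site are shown, since C/EBP factors act at these genes: chr9:111019042-111019291, plus strand, for Ltf and chr9:110419558-110419807, plus strand, for Ngp, from RefSeq (GRCm38.p6). Capitals mark TTNNGNAA, the loose core of a C/EBP site, on either strand. The motif was chosen after the granule genes had been seen.
Ltf: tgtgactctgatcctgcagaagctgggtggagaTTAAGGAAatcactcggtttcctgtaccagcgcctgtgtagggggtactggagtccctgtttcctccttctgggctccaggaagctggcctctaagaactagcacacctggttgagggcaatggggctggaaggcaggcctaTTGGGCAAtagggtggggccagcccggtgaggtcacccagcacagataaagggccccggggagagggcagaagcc
Ngp: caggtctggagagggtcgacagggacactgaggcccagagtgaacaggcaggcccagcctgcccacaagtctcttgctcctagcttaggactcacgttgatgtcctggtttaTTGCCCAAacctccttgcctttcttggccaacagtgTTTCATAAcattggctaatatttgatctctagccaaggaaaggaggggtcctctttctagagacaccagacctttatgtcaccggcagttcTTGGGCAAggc

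Ltf held 2 matches and Ngp held 3, while Camp held none. A match stood in 8 of the 9 granule genes (88.9%) and in 40.3% of all genes in the table, so this loose motif is common.

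The 10 MHC class II cells came from both lists and both labels: 2 each from KO1, KO3 and WT4, 3 from WT1 and 1 from WT3. Cd74, the invariant chain of class II molecules, had 13 to 686 UMIs per cell, and the 4 class II genes supplied 0.702% to 6.68% of UMIs. In 7 of the 10, the cells held transcripts of conventional type 1 dendritic cells in part, from Xcr1 and Clec9a, which encode surface receptors of that lineage, to its factor Batf3. The deepest of them, from WT4, had 21 UMIs of Xcr1, 4 of Clec9a and 5 of Batf3. A cell from KO3 differed, with 30 UMIs of Cd79a, 19 of Ms4a1, 18 of Ebf1 and 55 of Igkc, which are B cell genes, and with no Cst3, against 75 to 517 UMIs of Cst3 in the other 9.

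The 8 Lyz2 cells came from KO1 (1), KO2 (1), WT1 (3) and WT2 (3). Fn1, fibronectin, had 311 UMIs over all 8 and none in any other gated mitotic cell, and F13a1, a coagulation factor made by monocytes, had 384 and S100a4 had 132 UMIs. The basophil cell came from WT4 and held 481 UMIs of Mcpt8, 450 of Prss34, 40 of Cpa3 and 38 of Fcer1a, which encode granule proteases and the chain of the IgE receptor that binds IgE.

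Most of the 46 remaining cells carried transcripts usual in LSK cells. Angpt1, a ligand of the Tie2 receptor, was present in 43, Meis1, a partner of Hox factors, in 42 and Adgrl4, an adhesion receptor, in 40. Hoxa9 was present in 30 and Muc13, a transmembrane mucin, in 29. A list of LSK progenitor genes had a median of 78 UMIs per cell. Lineage transcripts were present too: all 46 held UMIs of a granulocyte and monocyte list (median 21.5) and of a megakaryocyte list (median 7). An erythroid list was present in 45 (median 5.5). A few stood out even here. A WT4 cell had 22 UMIs of Gzma, 11 of Klrk1 and 5 of Ncr1, which are cytotoxic lymphocyte genes, and another WT4 cell had 10 of Siglech, 36 of Irf8 and 24 of Ly6d, genes known from plasmacytoid dendritic cells. A cell from WT2 and one from WT4 had 47 and 50 UMIs of the erythroid gene Car1. Car2, another carbonic anhydrase, had 45 and 29 UMIs in these cells. It was present in 43 of the 46, with a median of 4.

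The summed S phase genes exceeded the summed G2/M and spindle genes in only 5 of the 89 cells, which had been selected on genes of the G2/M program. Summed over 78 G2/M and spindle genes, the level was 11540 to 15791 CPM (UMIs of the gene per 1000000 UMIs of the summed cells) by library, against 1644 to 3258 CPM in non-mitotic cells within the limits and 9143 to 15075 CPM in other mitotic cells. Summed over 60 S phase genes it was 3483 to 5326 CPM, against 2705 to 4564 and 4616 to 6114. The rule chose cells by genes of the G2/M program, so the first gap is a description. The 5 cells with a higher S list were 2 granule-gene cells and 3 remaining cells.

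Clustered histone genes, whose transcripts mostly lack a poly(A) tail and are made in S phase, summed to 2587 to 6273 CPM in gated mitotic cells, 2147 to 3204 CPM in other mitotic cells and 610 to 954 CPM in non-mitotic cells within the limits. They exceeded 50 UMIs per 10000 in 28 cells, of which 11 were granule-gene cells, 8 remaining cells, 5 Lyz2 cells, 3 MHC class II cells and 1 the basophil cell. Genes typical of LSK progenitors ran the other way, at 2999 to 7628, 6656 to 13045 and 8870 to 14670 CPM. KO3 was an exception against other mitotic cells, at 7628 CPM in gated mitotic cells and 7442 CPM in the others. The sums of gated mitotic cells also held the granule-gene, MHC class II, Lyz2 and basophil cells. Their part in the lower level of LSK progenitor genes was not tested.

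Within the group, the median of G2/M and spindle genes per 10000 UMIs was 111 in granule-gene cells, 133 in remaining cells, 157 in Lyz2 cells and 170 in MHC class II cells. The S phase median was 29.2, 47.3, 35.7 and 31.7 in the same order. The remaining cells therefore had the highest S phase median of these 4 sets. In granule-gene cells a median of 35.4% of UMIs came from granule genes, which lowers every other share per 10000.

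**Figure D3:**
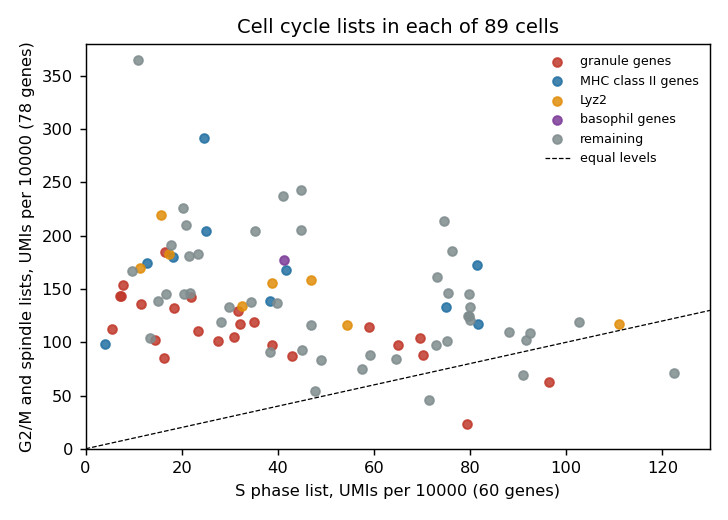
UMIs per 10000 of the 60 S phase genes (horizontal) and of the 78 G2/M and spindle genes (vertical) in each of the 89 gated mitotic cells, coloured by gene set. The dashed line marks equal levels, and 5 cells, 2 of them granule-gene cells, lie below it.

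Gene by gene, the difference from non-mitotic cells within the limits was widest in mitotic regulators. Ube2c, the E2 enzyme of the anaphase-promoting complex, averaged 448 CPM in gated mitotic cells and 18.2 CPM in the non-mitotic ones, a mean within-library log2 ratio of 3.98 with a pseudocount of 10 CPM. Linker histone gene Hist1h1b followed at 3.56, then the spindle protein gene Nusap1 at 3.54, and Birc5 at 3.41 and Cdca8 at 3.24, both of the chromosomal passenger complex. Ccna2, cyclin A, had a ratio of 3.09. At a level of at least 50 CPM, 26 of 26 G2/M genes and 41 of 41 spindle genes were above 0, with medians of 2.22 and 2.36, beside 1691 of 4293 genes in all and a median of −0.14. Because the rule used this contrast, nothing is read from these counts.

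S phase genes were split, with 24 of 32 above 0 and a median of 0.27. The 10 lowest ratios included Ccl4, a chemokine, at −2.44, Ifitm1 at −2.39 and Angpt1 at −2.26, the last at 395 against 1704 CPM. None of the 24 LSK progenitor genes was above 0, and their median was −1.18. Cells of the remaining set were 51.7% of the gated mitotic cells and 91.0% of the non-mitotic ones. Angpt1 stood at 795 CPM in the summed remaining cells and at 35.7 CPM in the other gated mitotic cells. Its log2 ratio was −0.45 in KO3 and −0.97 in WT4, and −1.40 to −4.90 in the list A libraries. The part of this mix of cells in the ratios was not tested. Among the 9 granule genes, 8 were above 0, with a median of 1.58, where the 5 list A libraries alone held granule-gene cells.

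Gated mitotic cells were a small share of every library. They made up 0.553%, 0.406% and 0.175% of kept cells in KO1 to KO3, and 1.13%, 0.768%, 0.600% and 0.237% in WT1 to WT4. Within each barcode list the knockout-labelled libraries were the lower ones, and across lists the groups overlapped. The means were 0.378% ± 0.191 (SD, n = 3) and 0.683% ± 0.369 (SD, n = 4), a difference of −0.304 percentage points (two-sided exact permutation test over 35 splits, p = 0.229, adjusted over 6 tests p = 0.457). The smallest p this design allows is 0.0286.

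Among mitotic cells, the share passing all limits was 1.64%, 1.38% and 0.943% in KO1 to KO3, and 4.20%, 2.73%, 2.69% and 1.49% in WT1 to WT4. The highest knockout-labelled value lay between WT4 and WT3. The difference of −1.46 percentage points did not pass (1.32% ± 0.351, n = 3, against 2.78% ± 1.11, n = 4, SD; exact permutation p = 0.0857, adjusted p = 0.429). In list A alone it was −1.70 points, with no overlap and the smallest p that 2 against 3 libraries allow (exact permutation p = 0.1), and in list B it was −0.552 points with 1 library a label.

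Turned around, the share of cells within the limits that were mitotic was 7.05%, 4.19% and 4.18% in KO1 to KO3. It was 14.3%, 15.0% and 14.5% in WT1 to WT3 and 3.83% in WT4. The 3 list A libraries labelled WT lay together and far above WT4, which lay below every knockout-labelled library. The difference was −6.76 points (5.14% ± 1.66, n = 3, against 11.9% ± 5.40, n = 4, SD; exact permutation p = 0.143, adjusted p = 0.429), and in list B it had the opposite sign, at 0.356 points.

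These differences moved with the cells counted. Without granule-gene cells, the 3 differences shrank to −0.144, −0.717 and −3.44 points. The 46 remaining cells alone made up 0.260%, 0.174% and 0.146% of kept cells in KO1 to KO3, and 0.322%, 0.171%, 0.0667% and 0.203% in WT1 to WT4. Their group means were 0.203% and 0.199%, a difference of 0.00403 points, and the groups overlapped. In cells thinned to 5000 UMIs with the scaled limits, the 3 differences were −0.591, −2.46 and −6.47 points, from means of 1.73% against 2.32%, 8.05% against 10.5% and 21.2% against 27.7% (exact permutation p = 0.343, 0.343 and 0.4). Within list B the last share was then 11.7% in KO3 and 14.0% in WT4.

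**Figure D4:**
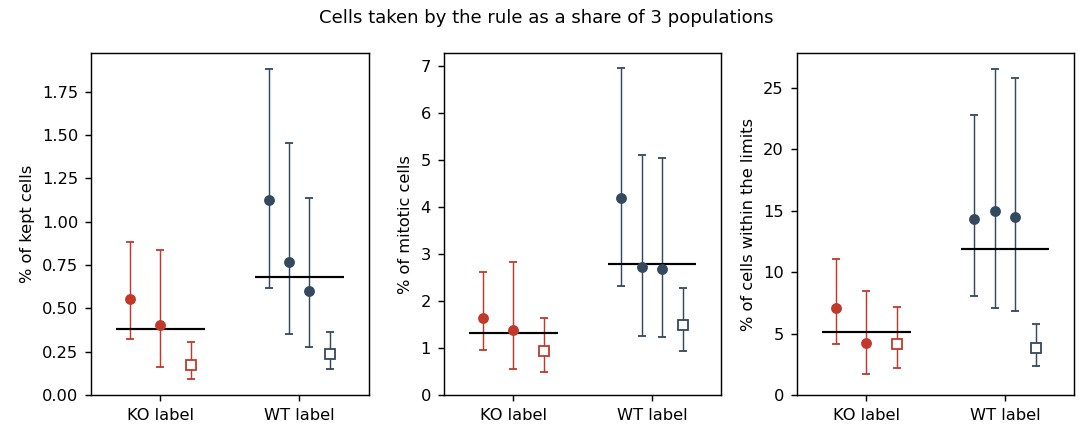
Share of kept cells, of mitotic cells and of cells within the limits that gated mitotic cells made up in each library, in percent, with 95% exact binomial intervals as bars, group means as horizontal lines, list A as filled circles and list B as open squares. The WT libraries of list A lie highest in each panel, and WT4 lies at 0.237%, 1.49% and 3.83%.

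Cell cycle levels in the gated mitotic cells did not pass a test between labels. The G2/M and spindle level was 14079 ± 1548 CPM (SD, n = 3) in knockout-labelled and 12872 ± 1420 CPM (SD, n = 4) in WT libraries (exact permutation p = 0.314, adjusted p = 0.471). The S phase level differed by −137 CPM (exact permutation p = 0.886, adjusted p = 0.886). The log2 ratio of the first to the second was 1.68 ± 0.361 (n = 3) and 1.50 ± 0.247 (n = 4), SD (exact permutation p = 0.457, adjusted p = 0.549).

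Counts summed over the gated mitotic cells of each library were then compared between labels gene by gene, with edgeR's quasi-likelihood test and the barcode list as a covariate. Of 2697 genes tested, 1 was called (0.0371%), and it was higher in the knockout-labelled libraries. The unadjusted p was under 0.05 in 118 genes (4.38%), and DESeq2 called 2 genes. The called gene was Prtn3, which encodes proteinase 3, a serine protease of the primary granules that myeloid progenitors make together with elastase and myeloperoxidase, whose genes the limits kept low.

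Levels of single genes by label are in CPM after TMM scaling of the library sums. Prtn3 stood at 257, 231 and 506 CPM in KO1 to KO3 and at 47.0, 33.8, 42.6 and 115 CPM in WT1 to WT4. All 3 knockout-labelled values were above all 4 WT values, from 42, 16 and 69 UMIs against 7, 4, 4 and 25. The means were 331 ± 152 CPM (SD, n = 3) and 59.6 ± 37.4 CPM (SD, n = 4), and edgeR's log2 difference was 2.37 (SE 0.34, adjusted p = 0.00160). The call was lost without the covariate (adjusted p = 1.00), with equal numbers of cells per library (adjusted p = 0.191), and in the 46 remaining cells alone, where the log2 difference was 2.31 (adjusted p = 0.152). Over 18 alternatives the difference ran from 1.98 to 2.57 and 14 kept the call, and 1 further loss is given with the replicate numbers at the end. Outside these 18, the setting of at least 20 mitotic UMIs called 0 of 820 genes.

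Of the 167 UMIs of Prtn3 in gated mitotic cells, 130 were in the remaining cells, where 34 of 46 held it, and 18 were in granule-gene cells. The difference was not confined to dividing cells: in non-mitotic cells within the limits the log2 difference was 1.32 (edgeR, adjusted p = 0.00695), and the test of the difference between the cell states did not pass (log2 1.10, adjusted p = 0.716). Without such scaling, Prtn3 over all kept cells stood at 2761, 1144 and 694 CPM in KO1 to KO3 and at 448, 277, 165 and 369 CPM in WT1 to WT4. Barcodes under 1000 UMIs can hold free RNA or damaged cells, and what they held here was not tested. They had 563, 101 and 832 CPM of Prtn3 in KO1 to KO3 and 63.8, 48.7, 44.9 and 284 CPM in WT1 to WT4. Its level in such barcodes was thus higher in the knockout-labelled libraries within each list. In list B, with 1 library a label, this rested on 34 UMIs of Prtn3 in KO3 and 34 in WT4, among 40878 and 119589 UMIs. The part of free RNA in the result was not tested.

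The next rises by p did not pass. Muc13 had a log2 difference of 2.12 (edgeR, adjusted p = 0.112), from 67.4, 130 and 330 CPM in KO1 to KO3 and 6.72, 8.46, 21.3 and 106 CPM in WT1 to WT4, so that WT4 lay between knockout-labelled values. Nearly all of its UMIs, 89 of 92, were in the remaining cells, which made up 8 of 17, 3 of 7 and 10 of 12 cells in KO1 to KO3 and 4 of 14, 2 of 9, 1 of 9 and 18 of 21 in WT1 to WT4. Csgalnact1, an enzyme that starts chondroitin sulfate chains, had 1.81 (adjusted p = 0.112) with groups that did not overlap, and 85 of its 89 UMIs were in the remaining cells. Fut8, the core fucosyltransferase of N-glycans, had 1.33 (adjusted p = 0.378), and the scaffold gene AC149090.1 had 1.64 (adjusted p = 0.195). Groups did not overlap in 64 of the 2697 genes (2.37%), beside 1.53% of genes in non-mitotic cells within the limits.

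No gene was called lower. The falls with the smallest p were Otulinl, an OTULIN-like protein of the endoplasmic reticulum, at −1.99 (edgeR, adjusted p = 0.248) and Apba1, an adaptor protein, at −1.99 (adjusted p = 0.351), then Arsb, a lysosomal sulfatase, at −1.38 (adjusted p = 0.378), Lcorl at −1.28 (adjusted p = 0.601) and St3gal4, a sialyltransferase that caps galactose, at −1.53 (adjusted p = 0.760). Otulinl stood at 12.3, 14.4 and 73.4 CPM in KO1 to KO3 and at 134, 118, 106 and 147 CPM in WT1 to WT4. The groups did not overlap. Of its 89 UMIs, 40 were in MHC class II cells and 20 in Lyz2 cells, and 22 in the remaining cells. Of the 89 UMIs of Apba1, 87 were in Lyz2 and MHC class II cells, and the Lyz2 cells numbered 1, 1 and 0 in KO1 to KO3 and 3, 3, 0 and 0 in WT1 to WT4.

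**Figure D5:**
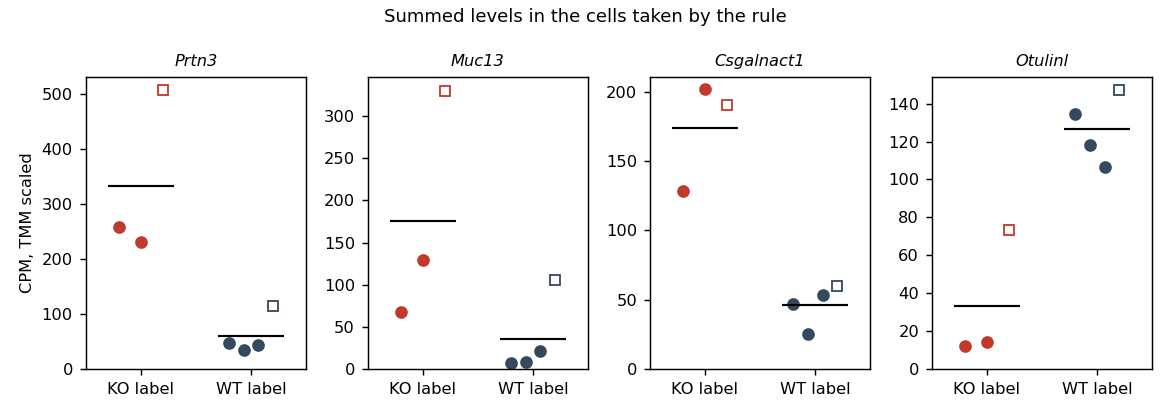
Level of Prtn3, Muc13, Csgalnact1 and Otulinl in summed gated mitotic cells of each library, in TMM-scaled CPM, with list A as filled circles, list B as open squares and group means as horizontal lines. The knockout-labelled values of Prtn3 lie at 231 to 506 CPM, above the WT values of 33.8 to 115 CPM, and the other 3 genes did not pass the test.

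Gene lists gave no called gene besides Prtn3, which is in the granulocyte and monocyte list. Among the LSK progenitor genes, 16 of 19 tested were above 0 with a median log2 difference of 0.79, beside 1294 of all 2697 genes and a median of −0.02. Remaining cells made up 47.1%, 42.9% and 83.3% of the gated mitotic cells in KO1 to KO3, and 28.6%, 22.2%, 11.1% and 85.7% in WT1 to WT4. The part of this mix was not tested. For 14 LSK progenitor genes tested in the remaining cells alone, the median was 0.58, beside a median of −0.02 over 677 genes. That fit called 0 genes and rested on few cells, with 1 in WT3, 2 in WT2 and 3 in KO2. Of G2/M genes 17 of 21 were above 0 with a median of 0.35, of spindle genes 24 of 36 with 0.07, and of S phase genes 10 of 26 with −0.08. Of the granule genes 2 of 8 were above 0, with a median of −0.11.

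Other genes known from these libraries were scarce in the 89 gated mitotic cells. Socs3, a brake on cytokine signalling, had 3 UMIs in all 89 cells, Ccl27a had 4 and Slc4a8 had 3. Csf1r, the receptor of macrophage colony-stimulating factor, had 15 UMIs, of which 12 were in Lyz2 cells. Rab44 had 35 UMIs and Bank1 had 17.

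In non-mitotic cells within the limits, the same test called 8 of 8233 genes (0.0972%): Prtn3, Serpina3g and Fut8 were higher (0.0364%) and Rap1gap2, Aoah, Fcnb, Hvcn1 and Ptpro lower (0.0607%) in knockout-labelled libraries. The unadjusted p was under 0.05 in 4.65% of genes. Fut8 had a log2 difference of 1.00 there, beside 1.33 in gated mitotic cells. No gene was called without WT3 or without the list covariate. Over 15 alternatives the difference of Prtn3 in these cells ran from 1.13 to 1.72, with 13 past the threshold, and that of Fut8 from 0.83 to 1.10, with 8 past it.

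The label difference itself was compared between gated mitotic and non-mitotic cells in 5814 genes, of which 6 were called (0.103%), 3 in each direction (0.0516%), and 3.94% had an unadjusted p under 0.05. Prss34, Mcpt8 and Cpa3 were lower, and the single basophil cell of WT4 held 450 of the 453 UMIs of Prss34, 481 of the 482 of Mcpt8 and 40 of the 62 of Cpa3 in gated mitotic cells. Ifitm6, Lcn2 and Chil3 were higher, and granule-gene cells held 399 of 409, 2442 of 2444 and 2513 of 2619 of their UMIs. KO1 alone held 285 of the 409 UMIs of Ifitm6. Without granule-gene cells, Ifitm6 and Chil3 were not called and Lcn2 was too low to be tested. Without KO1 none of the 3 passed.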

How the data were processed

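Processing notes name Cell Ranger 7.0.0 and Seurat 4.4.0 and the mm10 build. The labels name the Single Cell 3′ v2 kit, which the 2 sets of barcode sequences leave in doubt. For each library the authors deposited a matrix of UMI counts, per the file headers, and these counts were used as deposited for 32285 genes. Barcodes with at least 1000 UMIs, at least 500 genes and at most 10% mitochondrial UMIs were kept. No doublet caller was run, and an alternative left out cells above the 95th percentile of UMIs of their library. The members, gene lists and tests were chosen with earlier results of these data known.

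Barcode lists were told apart by how far the sets of first 6 bases overlapped between libraries (900 to 958 in list A, 480 in list B). Pairs of libraries shared 874 to 952 of them within list A and 480 within list B, and 118 to 128 across the lists. UMI counts were summed per library over the gated mitotic cells and over non-mitotic cells within the limits. Sums were compared with edgeR 4.0.16 (R 4.3.3) by its two-sided quasi-likelihood test, after TMM scaling and filterByExpr, with a robust fit and the barcode list as covariate. Benjamini-Hochberg adjusted p-values under 0.05 were called. The 19 genes of the rule were left out of tests. A minimum of 20 member cells per library had been planned, which only 1 library met, so all 7 libraries (7 to 21 cells) were used. The state comparison added the library as a block. DESeq2 1.42.0 was an alternative. Standard errors were taken as the log2 difference over the square root of F. Single values were compared by exact permutation over libraries.

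Genes were named by rule: those past the threshold at a mean of at least 20 CPM, topped up by smallest p to 5 in each direction, B4galt1, Muc13, Socs3, Ccl27a, Slc4a8, Csf1r, Rab44 and Bank1, and the widest ratios between states, at a mean of at least 50 CPM. Genes that mark the sets within the group were named after their values were seen. On simulated data, 200 genes per comparison were changed by a log2 difference of 2 in either direction. In gated mitotic cells, 190 of 193 changed genes tested were recovered among 2408 genes (201 called, 11 false). In non-mitotic cells, 199 of 199 were recovered among 7877 genes (206 called, 7 false). Smaller differences, and mixes of cells that differ between libraries, were not simulated, so these recoveries do not cover them. Proportions of cells carry 95% exact Clopper-Pearson intervals, and a count of 0 was read as up to 3 cells.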

Additional observations from a re-analysis of the deposited data

Results flagged for a closer look

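In 19 values of the same 4 WT libraries, 1 library stood far from the other 3 in 3 cases, always WT4. Chance gives such a gap in about 1 of 20 independent groups of normal values. The 19 values share their libraries, and some genes were named by their label difference, so the 3 cases cannot be set against that rate. The mitotic share of cells within the limits was 3.83% in WT4. In gated mitotic cells, Prtn3 stood at 115 CPM and Muc13 at 106 CPM in WT4. WT4 is the only WT library of list B.

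The label difference in gated mitotic cells minus that in non-mitotic cells within the limits passed edgeR's quasi-likelihood test in 6 genes. On the log2 scale it was −9.55 for Prss34 (adjusted p = 8.83e-11), −10.56 for Mcpt8 (adjusted p = 7.00e-10) and −4.38 for Cpa3 (adjusted p = 0.0197). For Mcpt8 it was −0.06 without KO3, and for Cpa3 −1.96, and neither then passed. It was 2.98 for Ifitm6 (adjusted p = 4.23e-04), 2.44 for Lcn2 (adjusted p = 0.0197) and 1.75 for Chil3 (adjusted p = 0.0155). Without KO1 these were 3.72, 2.56 and 1.93, and none of them passed.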

How the results depend on the processing

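Of 473 values recomputed, 390 kept their direction and side of the threshold or, for counts of called genes, stayed close to the main count. A value that passed in neither setting is among those kept, so this total does not measure how firm a difference is. Of the rest, 30 counts of called genes moved, 14 values reversed, 33 fell below the threshold and 6 rose past it. Alternatives without granule-gene cells, or with the remaining cells alone, were chosen after seeing the data. With at least 20 mitotic UMIs, the label difference turned to −1589 CPM for G2/M genes, 1657 CPM for S phase genes and −0.58 for their log2 ratio. The S phase difference also turned to 87.4 CPM with at most 5% mitochondrial UMIs, 564 CPM without granule-gene cells, 344 without KO1, 111 without WT1 and 55.0 without WT4. The log2 ratio turned to −0.13 without granule-gene cells, the gated share to 0.356 points in list B, and the share of kept cells to 0.00403 points for remaining cells. The interaction of Chil3 turned to −0.079 without granule-gene cells. The causes were not tested.

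With 1 library left out, differences ran from −0.453 to −0.157 points of kept cells, −1.89 to −0.982 of mitotic cells, −9.46 to −5.73 of cells within the limits, 351 to 1857 CPM for G2/M genes, −553 to 344 CPM for S phase genes and 0.03 to 0.38 for the log2 ratio. Genes called ran from 1 to 2 in gated mitotic cells (2 without KO2, KO3 or WT4), from 0 (without WT3) to 47 (without KO2, 37 without KO1, 5 without WT1 or WT2) in non-mitotic cells, and from 4 to 15 (without WT1, 13 without WT3) for the interaction.

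In these 3 fits, in that order, DESeq2 called 2, 16 and 2 genes, no gene filter 15, 79 and 21, no covariate 0, 0 and 3, list A alone 2, 13 and 2, and remaining cells alone 0, 5 and 0. In gated mitotic cells, at least 20 mitotic UMIs and equal cell numbers each called 0.

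Replicate numbers shared by the labels did not pair the libraries: same-numbered deviations correlated at 0.165, 0.444 and −0.503. With the replicate block, 2, 51 and 12 genes were called, Prtn3 had an adjusted p of 0.0800 in gated mitotic cells, the Cpa3 interaction turned to 2.18, and the S phase difference to 55.0 CPM. The block fit could not be estimated for Prss34. Thinning to 5000 UMIs moved the differences in shares to −0.591, −2.46 and −6.47 points. The member sums held 57987 to 230149 UMIs.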
